A study of Mus musculus with 6 samples.

Results

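The homeostatic astrocyte genes described here are 45 genes chosen by symbol. They encode the transporters, metabolic enzymes, junction proteins, receptors, lineage factors and secreted proteins that resting astrocytes use to support neurons. Of the 45, 43 were rows of the table of 24411 genes and 41 had enough counts to be tested among 13919 genes. Gli1 and Slc7a10 were too low for the test, and the antisense transcripts Kcnj10os and Grin2a-as had no row under those symbols. RNA was sequenced from primary cultures of mouse embryonic cortex taken at embryonic day 18. The labels name neither genotype nor strain. One group of 3 libraries came from cells given PBS (phosphate-buffered saline), the vehicle, and the other 3 from cells given 3.45 µM preformed fibrils (PFF) of mouse α-synuclein on day 10 in vitro. RNA was taken on day 18 in vitro. Both groups were plated in medium with serum and then kept in a neuron culture medium.

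Astrocytes clear glutamate from the synapse through the transporters encoded by Slc1a2 and Slc1a3 and convert it to glutamine with glutamine synthetase. They buffer ions and water through channels and gap junctions, supply neurons with metabolites and antioxidants, and secrete matrix and lipid-carrying proteins. Their development is driven by factors such as Sox9 and the NFI family. Several of the members are not confined to astrocytes: Cst3 is also abundant in microglia, and the NFI and Gli factors are used by other neural cells. The label of the samples is cultured cortical neuron, and the 18 genes of a neuron marker list summed to between 8460.2 and 9383 CPM over the 6 libraries, with none of the 18 at 0 in all of them. CPM are counts per 1000000 of a library's TMM-scaled total, where TMM is a normalisation between libraries. The 43 members summed to between 8139 and 11338 CPM, so astrocyte transcripts were present in every library. In RNA of whole cultures, fewer astrocytes and less RNA per astrocyte cannot be told apart.

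Library totals ranged from 9224974 to 10742383 estimated counts. Replicate 3 of both groups stood apart from replicates 1 and 2 on the second principal component, which held 18.3% of the variance. The members took part in this: PBS 3 was the highest PBS library for 32 of the 43 members and PFF 3 the highest PFF library for 35. Against the mean of replicates 1 and 2, the median member was 1.2 times as high in PBS 3 and 1.27 times as high in PFF 3, while the median of all tested genes was 0.998 and 1 times as high. Counts of called genes below are therefore also given for replicates 1 and 2 only, which was decided with the data in view. Separate cultures are not stated for the replicates, so a p-value speaks of the spread among these 6 libraries, which may be technical.

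**Figure D1:**
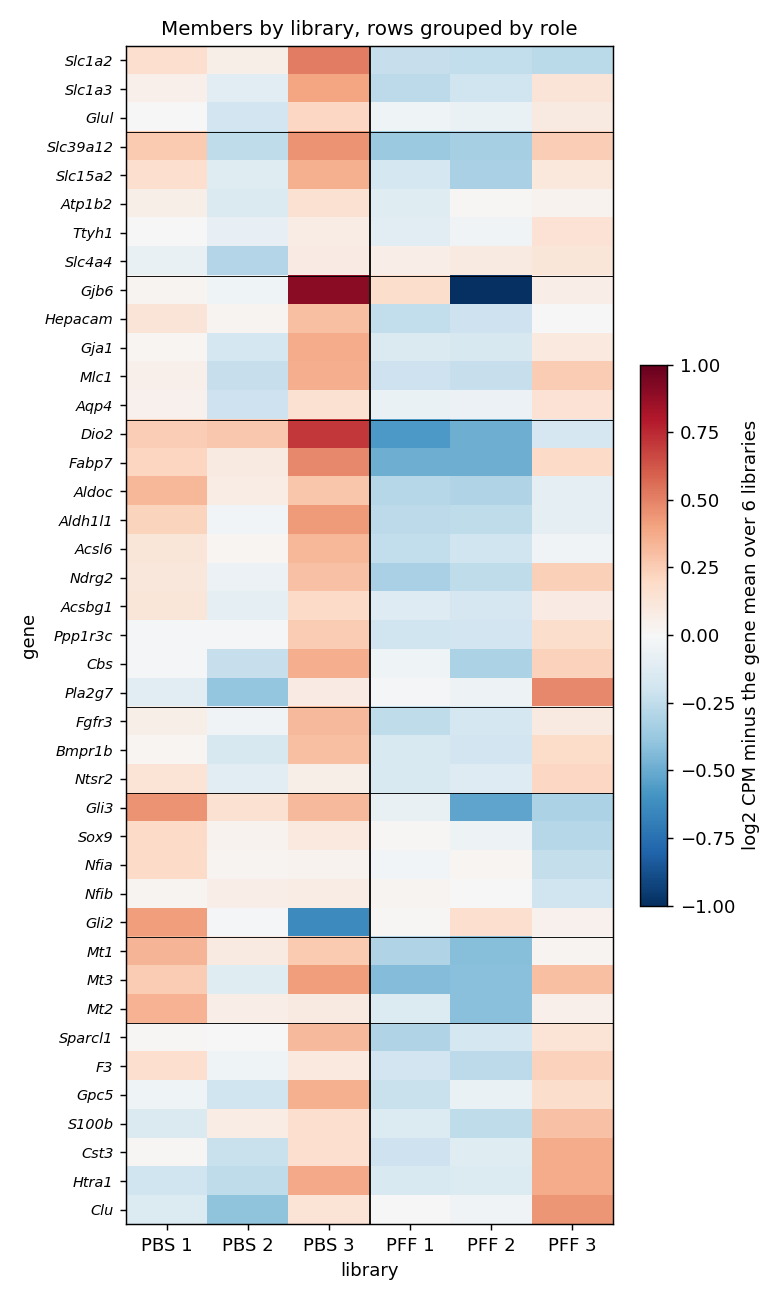
Level of each of the 41 tested members in each library, as log2 CPM minus the gene's own mean over the 6 libraries, with rows grouped by role (horizontal lines) and the groups parted by a vertical line. The columns of PBS 3 and PFF 3 are redder than the other columns of their group, and the rows of Dio2, Slc1a2 and Aldoc are red in all PBS libraries and blue in all PFF libraries.

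After fibrils 6 of the 41 tested members fell and none rose, at an adjusted p under 0.05 in edgeR's quasi-likelihood test over all genes. These were the deiodinase gene Dio2, the lineage factor Gli3, the glutamate transporter gene Slc1a2, the aldolase gene Aldoc, the metallothionein gene Mt1 and the folate enzyme gene Aldh1l1. The 6 are 14.6% of the members, while 2.6% of all tested genes fell and 3.98% rose. By unadjusted p under 0.05, 11 members were lower and 0 higher. DESeq2 called 5 members lower and 0 higher (2.35% and 3.57% of all genes), and limma-voom called 6 lower and 0 higher (2.49% and 3.89%). The median log2 fold change of the members was −0.16, against −0.000557 over all tested genes. A log2 fold change here is PFF minus PBS, with its standard error (SE). In 12 members (29.3%) all 3 PFF libraries lay below all 3 PBS libraries, as did 11.6% of all tested genes. In 0 members did the PFF libraries all lie above, against 13.4% of all genes.

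The number of members that fell rested on single libraries. It was 1 (Dio2) without PFF 2, 2 without PBS 1, 3 without PBS 3, 4 without PFF 1, 6 without PBS 2 and 13 without PFF 3. Of all tested genes, 0.711%, 1.12%, 2.05%, 1.4%, 1.66% and 7.01% were then called lower, in the same order. No member rose in these 6 fits, in which 2.22%, 2.52%, 3.23%, 2.73%, 2.61% and 6.19% of all genes did. Among replicates 1 and 2 only, 13 members fell and 2 rose (Clu and Slc4a4), when 8.38% of all genes were called lower and 8.78% higher. The 13 held 5 of the 6 named above, all except Gli3. The added ones were Acsl6, F3, Fabp7, Hepacam, Mt2, Mt3, Ndrg2 and Sparcl1. With a term for the replicate number, 15 members fell and 2 rose (Clu and Pla2g7), when 6.85% of all genes were called lower and 7.49% higher. Dio2 passed in every alternative that was run.

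**Figure D2:**
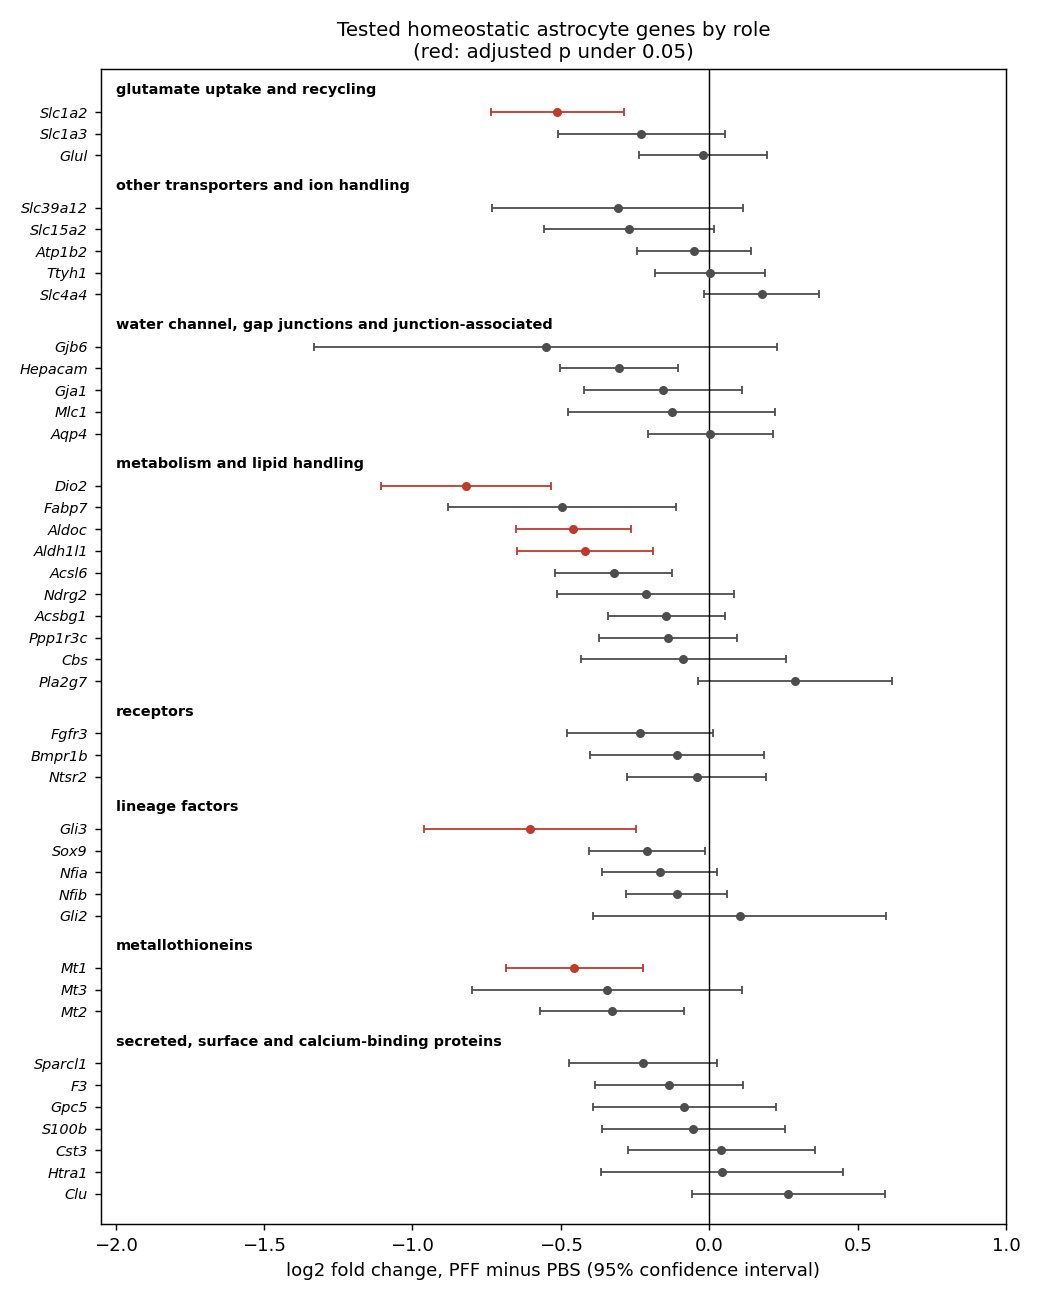
Log2 fold change (PFF minus PBS) of the 41 tested members with its 95% confidence interval, grouped by role and ordered by size within a role. The 6 red points, those with an adjusted p under 0.05, all lie left of 0, and the intervals of Aqp4, Ttyh1 and Glul are centred near 0.

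Dio2 fell most. It encodes the type II deiodinase, which turns thyroxine into the active thyroid hormone and in the brain is made by astrocytes and tanycytes. Its level was 241, 244 and 331 CPM in PBS 1 to 3 and 136, 145 and 181 CPM in PFF 1 to 3. The highest PFF library lay below the lowest PBS library, and within each group replicate 3 was the highest. The log2 fold change was −0.82 ± 0.13 (95% interval −1.11 to −0.53, adjusted p = 0.00244). Leaving out 1 library at a time gave values between −0.95 and −0.65 with an adjusted p of at most 0.0146. On GRCm38 (mm10) the gene lies on chromosome 12 from 90724552 to 90738438, on the minus strand, in GENCODE vM21. Its promoter is shown because the gene moved most. In the RefSeq table (GRCm38.p6, chr12:90738989-90739288, minus strand, from 250 bases before the start site to 50 after) it carries a cyclic AMP response element, TGACGTCA, and a TATA box, TATAAA, in capitals. The start site of that table lies outside the GENCODE gene, upstream of it.
Dio2: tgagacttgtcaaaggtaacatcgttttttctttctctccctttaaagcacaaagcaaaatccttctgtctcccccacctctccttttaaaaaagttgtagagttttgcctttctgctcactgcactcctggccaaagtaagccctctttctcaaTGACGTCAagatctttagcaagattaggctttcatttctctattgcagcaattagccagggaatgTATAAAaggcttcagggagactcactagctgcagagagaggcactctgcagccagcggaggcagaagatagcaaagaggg
The response element, searched on both strands, begins 95 bases before the start site used by that table and is found in 1.79% of all 32851 promoter windows. Among the 45 windows of the 36 members with an entry, 1 holds it. The TATA box, searched on the gene's strand, is found in 8.32% of all windows.

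Of the genes of glutamate uptake and recycling, 1 of 3 fell. Slc1a2 encodes GLT-1, the main glutamate transporter of forebrain astrocytes, on chromosome 2 from 102658659 to 102790784. Its level was 742, 687 and 942 CPM in PBS 1 to 3 and 561, 554 and 548 CPM in PFF 1 to 3. The PFF libraries were nearly equal, and all lay below the PBS libraries, of which PBS 3 was the highest. Slc1a2 fell by 0.51 on the log2 scale (SE 0.105, adjusted p = 0.00906). Leaving out PFF 2 ended the call (adjusted p = 0.0557), and in replicates 1 and 2 only the change was −0.35 ± 0.07, adjusted p = 0.0013. The second transporter, Slc1a3 (GLAST), stood at 603, 539.5 and 769 CPM in PBS 1 to 3 and 487, 508 and 636 CPM in PFF 1 to 3. Its groups overlapped, at −0.23 ± 0.13 (adjusted p = 0.336). Glul, which encodes glutamine synthetase, was at 984, 859 and 1133 CPM in PBS 1 to 3 and 952, 934 and 1046 CPM in PFF 1 to 3. Its groups overlapped as well, with a log2 difference of −0.02 ± 0.10 and a 95% interval of −0.24 to 0.19. The difference in response between Slc1a2 and Slc1a3 was not tested.

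Metabolic and lipid-handling genes held 3 of the 6 falls among 10 members, which were Dio2, Aldoc and Aldh1l1. Aldoc, the brain aldolase of glycolysis, on chromosome 11 from 78322968 to 78327781, was at 586, 491 and 563 CPM in PBS 1 to 3 and 381, 378 and 436 CPM in PFF 1 to 3. No PFF library reached the lowest PBS library, PBS 2. The fold change was −0.46 ± 0.09 (adjusted p = 0.00716), and the call was lost on leaving out PBS 1 or PFF 2 (adjusted p = 0.053 and 0.0597). Aldh1l1, the formyltetrahydrofolate dehydrogenase widely used as an astrocyte marker, stood at 67.5, 56.6 and 77.5 CPM in PBS 1 to 3 and 48.1, 48.5 and 54.2 CPM in PFF 1 to 3. Its highest PFF library lay just under its lowest PBS library. It fell by 0.42 (SE 0.107, adjusted p = 0.0321), but did not pass without PBS 1, PBS 3, PFF 1 or PFF 2 (adjusted p up to 0.16). Its exons on chromosome 6 from 90486427 to 90600203 overlap Gm15756 on the opposite strand over 11% of their bases, and the strand setting of the counting is not known.

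Fabp7, the brain lipid-binding protein of radial glia and astrocytes, had the second-largest difference in this role, though it did not pass. Its level was 716, 658 and 864 CPM in PBS 1 to 3 and 440.4, 441 and 705 CPM in PFF 1 to 3. PFF 1 and PFF 2 lay below every PBS library, and PFF 3 lay among them. The difference was −0.50 ± 0.17 (adjusted p = 0.131), and in replicates 1 and 2 only it was −0.63 ± 0.07, adjusted p = 1.36e-06. Acsl6, an acyl-CoA synthetase for polyunsaturated fatty acids, missed the threshold at −0.32 ± 0.09 (adjusted p = 0.054) with no overlap between the groups. Pla2g7, which encodes the secreted phospholipase that degrades platelet-activating factor and is also made by macrophages, was the only member of the role with a positive value (0.29 ± 0.15, adjusted p = 0.295). Its level was 249 ± 40.4 CPM in PBS and 304 ± 66.0 CPM in PFF (mean ± SD, n = 3 here and below), with PFF 3 the highest. Its estimated counts were not whole in any library, and 11% of its exonic bases lie opposite another gene, so its level is uncertain. The remaining members, Ndrg2, Acsbg1, Ppp1r3c (a glycogen-targeting phosphatase subunit) and Cbs (the first enzyme of transsulfuration), had log2 values between −0.21 and −0.09 and adjusted p between 0.385 and 0.807.

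**Figure D3:**
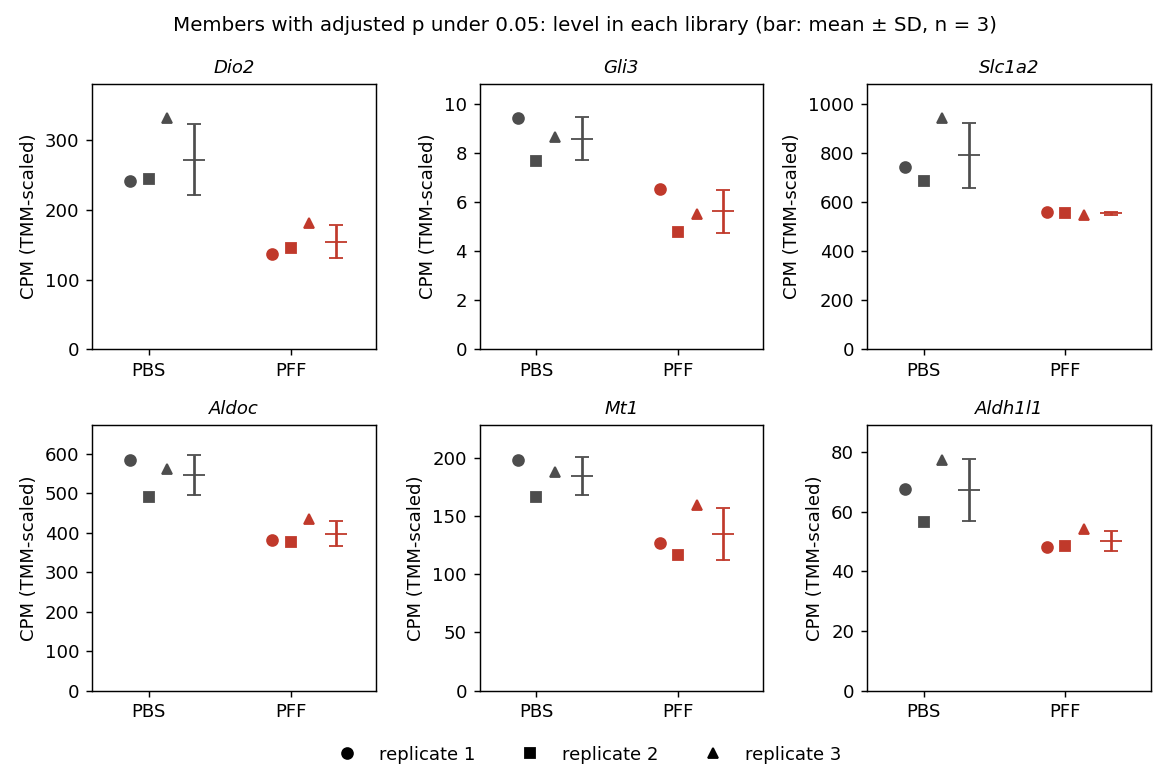
Level of the 6 members with an adjusted p under 0.05 in each library, in CPM on linear axes from 0; symbols mark the replicate number and bars the mean ± SD of 3 libraries. In each panel the 3 PFF libraries lie below the 3 PBS libraries, and Dio2 has the largest fitted log2 fold change of the 6 (−0.82).

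The 3 metallothionein genes stand side by side on chromosome 8 and encode small cysteine-rich proteins that bind zinc and copper. Mt1 and Mt2 are induced by metals and glucocorticoids in astrocytes, and Mt3 is the brain form. Their promoter windows are shown because all 3 had lower means after fibrils. They come from the RefSeq table (GRCm38.p6, plus strand, chr8:94178839-94179138, chr8:94172368-94172667 and chr8:94152357-94152656). Capitals mark the core of the metal response element, searched as TGCGCNC or TGCACNC on both strands.
Mt1: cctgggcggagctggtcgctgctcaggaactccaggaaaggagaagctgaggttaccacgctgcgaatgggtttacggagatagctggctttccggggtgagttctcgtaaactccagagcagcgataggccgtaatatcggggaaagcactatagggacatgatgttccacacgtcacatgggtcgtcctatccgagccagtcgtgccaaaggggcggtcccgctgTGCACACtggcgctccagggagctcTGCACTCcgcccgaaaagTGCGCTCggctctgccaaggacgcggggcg
Mt2: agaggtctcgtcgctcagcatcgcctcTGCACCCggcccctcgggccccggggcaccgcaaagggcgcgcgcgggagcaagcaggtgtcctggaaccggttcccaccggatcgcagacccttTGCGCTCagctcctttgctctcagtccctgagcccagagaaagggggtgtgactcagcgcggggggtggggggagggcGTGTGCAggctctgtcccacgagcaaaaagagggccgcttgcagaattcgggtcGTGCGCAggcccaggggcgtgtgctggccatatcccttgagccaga
Mt3: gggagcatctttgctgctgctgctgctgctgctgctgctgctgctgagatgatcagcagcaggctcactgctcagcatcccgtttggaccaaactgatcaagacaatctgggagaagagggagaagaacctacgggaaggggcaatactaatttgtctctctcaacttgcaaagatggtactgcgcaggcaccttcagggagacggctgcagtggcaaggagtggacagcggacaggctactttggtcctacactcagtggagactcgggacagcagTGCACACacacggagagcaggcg
The core is found 3 times in the window of Mt1, 4 times in that of Mt2 and 1 time in that of Mt3. Relative to the start site of that table, matches begin at −23, 2 and 20 in Mt1. In Mt2 they begin at −223, −128, −50 and 4, and in Mt3 at 27, so several lie after the start site. The start site used for Mt2 lies upstream of its GENCODE gene, which begins at 94172664. The core is short, and 25.7% of all promoter windows hold it, as do 14 of the 45 windows of members.

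Mt1 was at 199, 167 and 188 CPM in PBS 1 to 3 and 127, 117 and 159.9 CPM in PFF 1 to 3. All PFF libraries lay below all PBS libraries, PFF 3 closest to them. Mt1 fell by 0.45 (SE 0.108, adjusted p = 0.0226), and did not pass without PBS 1, PBS 3, PFF 1 or PFF 2 (adjusted p up to 0.142). The second gene, Mt2, was at 89.2, 73.3 and 74.7 CPM in PBS 1 to 3 and 63.6, 52.6 and 72.8 CPM in PFF 1 to 3. Its groups did not overlap either, but PFF 3 nearly reached PBS 2, and it did not pass (−0.33 ± 0.11, adjusted p = 0.112). Of the exonic bases of Mt2, 73.5% lie opposite Gm45774, so its counts are uncertain. Mt3 was at 343, 265 and 385 CPM in PBS 1 to 3 and 213, 215 and 354 CPM in PFF 1 to 3. Here PFF 3 was above PBS 1 and PBS 2, and the difference did not pass (−0.34 ± 0.20, adjusted p = 0.365). In replicates 1 and 2 only, all 3 genes fell: Mt1 (−0.57 ± 0.08, adjusted p = 2.88e-05), Mt2 (−0.47 ± 0.10, adjusted p = 0.00399) and Mt3 (−0.50 ± 0.10, adjusted p = 0.00277). Of 19 other tested genes of zinc homeostasis, 1 fell and none rose, with a median of 0.13. This was Slc30a10, a manganese and zinc exporter, at 12.6 ± 0.652 CPM in PBS and 7.85 ± 0.981 CPM in PFF (−0.68 ± 0.14, adjusted p = 0.00864). The call was lost without PFF 2, and in replicates 1 and 2 only 4 genes of that list were higher and 1 lower. In those libraries 8.78% of all genes were called higher and 8.38% lower. The metal-sensing factor gene Mtf1 had a log2 value of 0.11 ± 0.09 (adjusted p = 0.522).

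Among the 5 tested lineage factors 1 fell. Gli3 is a transcription factor of the hedgehog pathway that acts largely as a repressor, on chromosome 13 from 15463235 to 15730026. It was low, with 49 to 90 counts a library, at 9.42, 7.67 and 8.66 CPM in PBS 1 to 3 and 6.55, 4.80 and 5.54 CPM in PFF 1 to 3. All PFF libraries lay below all PBS libraries. The difference was −0.60 ± 0.17 (adjusted p = 0.0447). It is the least firm of the 6: leaving out any 1 library other than PFF 1 ended the call (adjusted p up to 0.217), as did DESeq2 (0.0855), library-size scaling (0.0654), a stricter count filter (0.0514) and the use of replicates 1 and 2 only (0.0541). Gli2, the main activator, was at 6.39, 4.76 and 3.08 CPM in PBS 1 to 3 and 4.82, 5.38 and 4.94 CPM in PFF 1 to 3, with groups that overlapped (0.10 ± 0.23, adjusted p = 0.847). Gli1, a transcriptional target of the pathway, had 1 or 2 counts in each library and was not tested.

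Of 17 other tested hedgehog pathway genes none rose or fell in the main edgeR fit, DESeq2 or limma-voom. In the main fit 2 had an unadjusted p under 0.05. These were the ligand co-receptor gene Gas1 (16.1 ± 1.35 CPM in PBS and 20.8 ± 2.25 CPM in PFF, 0.37 ± 0.12, adjusted p = 0.0856) and the gene Disp2 (0.24 ± 0.08, adjusted p = 0.101). Both passed in replicates 1 and 2 only (adjusted p = 0.047 and 0.00667), and Disp2 passed without PFF 3 (0.0315). With all libraries, 2 genes of the list rose with a term for the replicate number, and 2 with replicate 3 as a batch term. Of all tested genes, 7.49% and 7.39% rose in these 2 fits, and 8.78% in replicates 1 and 2 only. The receptor gene Ptch1, itself a target of the pathway, stood at 21.3 ± 1.46 CPM in PBS and 20.3 ± 3.10 CPM in PFF (−0.07 ± 0.12, adjusted p = 0.809). The transducer gene Smo was at 26.8 ± 2.42 CPM in PBS and 25.6 ± 3.47 CPM in PFF (−0.07 ± 0.11, adjusted p = 0.795). The list had a median log2 fold change of −0.01.

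Sox9, the factor that starts gliogenesis and stays on in astrocytes, was at 68.9, 61.9 and 64.8 CPM in PBS 1 to 3 and 61.0, 58.4 and 49.6 CPM in PFF 1 to 3. Nfia, which acts with it, was at 63.3, 56.4 and 56.8 CPM in PBS 1 to 3 and 54.3, 56.0 and 46.9 CPM in PFF 1 to 3. Nfib was at 86.7, 89.2 and 89.4 CPM in PBS 1 to 3 and 86.7, 85.1 and 74.1 CPM in PFF 1 to 3. In each of the 3 the groups did not overlap, with PFF lower, but the gap was narrow (PFF 1 and PBS 1 of Nfib agree to 3 digits) and none passed (−0.21 ± 0.09, −0.17 ± 0.09 and −0.11 ± 0.08; adjusted p = 0.202, 0.309 and 0.459). Unlike most members, these 3 factors were lowest in PFF 3 within the PFF group. In a list of 19 other glial lineage factors 5 fell and none rose, at a median of −0.20. They included Id3 (−1.87 ± 0.17), Hes5 (−1.28 ± 0.15), Id1 (−0.91 ± 0.18) and Sox8 (−0.67 ± 0.13, adjusted p = 0.00642), of which Sox8 is also expressed in the oligodendrocyte lineage. The fifth was the Notch target Hes1 (−0.76 ± 0.21). The number that fell was 2 without PFF 2, and in replicates 1 and 2 only it was 8, with 1 higher. Of all tested genes, 0.711% fell without PFF 2, and 8.38% fell and 8.78% rose in replicates 1 and 2 only.

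None of the 5 genes for the water channel, gap junctions and their partners passed in the main edgeR fit, with 1 at an unadjusted p under 0.05. Aqp4, the water channel of astrocyte endfeet, was at 334, 280.4 and 359.7 CPM in PBS 1 to 3 and 309, 310.3 and 357 CPM in PFF 1 to 3. The PFF range lay inside the PBS range, at 0.00 ± 0.10 (95% interval −0.21 to 0.21). Gja1 (connexin 43) was at 141, 123 and 181 CPM in PBS 1 to 3 and 126, 125 and 149 CPM in PFF 1 to 3 (−0.16 ± 0.12, adjusted p = 0.503). Its high PBS value came from PBS 3. Gjb6 (connexin 30) had 8 to 33 counts a library, at 1.73, 1.65 and 3.18 CPM in PBS 1 to 3 and 1.93, 0.783 and 1.78 CPM in PFF 1 to 3. At this depth its interval was wide (−1.33 to 0.23), and its groups overlapped. Mlc1, the membrane protein of endfeet, was at 289.9, 239 and 359 CPM in PBS 1 to 3 and 242, 238 and 334 CPM in PFF 1 to 3 (−0.13 ± 0.16, adjusted p = 0.705), with replicate 3 the highest in both groups. Its partner Hepacam (GlialCAM) was at 87.6, 81.6 and 98.6 CPM in PBS 1 to 3 and 67.6, 69.2 and 80.1 CPM in PFF 1 to 3. Hepacam was the 1 gene of this role with no overlap between its groups, and it missed the threshold at −0.30 ± 0.09 (adjusted p = 0.0689). It passed without PFF 3 (0.00963) and in replicates 1 and 2 only (0.00702). With all libraries, Hepacam passed without the low-count filter, with a term for the replicate number and with replicate 3 as a batch term.

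Other transporters and ion-handling genes showed no call among 5 tested. Slc4a4, the sodium bicarbonate cotransporter, was higher in mean, at 219 ± 28.2 CPM in PBS and 248 ± 4.87 CPM in PFF (0.18 ± 0.09, adjusted p = 0.281). In replicates 1 and 2 only it rose (0.26 ± 0.07, adjusted p = 0.0142). The peptide transporter gene Slc15a2 (−0.27 ± 0.13) and the zinc transporter gene Slc39a12 (−0.31 ± 0.19) were lower in mean with overlap between groups (adjusted p = 0.263 and 0.389). Atp1b2, a subunit of the sodium pump, and Ttyh1, an anion channel relative, were close to 0 (−0.05 ± 0.09 and 0.00 ± 0.09). The estimated counts of Ttyh1 were not whole in any library, and 6.65% of its exonic bases lie opposite other genes, so its level is uncertain. The serine and alanine exchanger Slc7a10 had 6 to 11 counts a library. The receptor genes Fgfr3, Bmpr1b and Ntsr2, for a fibroblast growth factor, bone morphogenetic proteins and neurotensin, had values of −0.23 ± 0.11, −0.11 ± 0.14 and −0.04 ± 0.11 (adjusted p from 0.257 to 0.87). Of the exonic bases of Fgfr3, 13.9% lie opposite another gene. The groups of each overlapped.

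Secreted, surface and calcium-binding proteins had no call among 7. Clusterin (Clu), a secreted chaperone and lipid carrier, was higher in mean, at 357, 297 and 429.7 CPM in PBS 1 to 3 and 390.2, 382 and 532 CPM in PFF 1 to 3. PFF 3 was the highest library, but PFF 1 and PFF 2 lay between PBS 1 and PBS 3 (0.27 ± 0.15, adjusted p = 0.329). In replicates 1 and 2 only Clu rose (0.25 ± 0.08, adjusted p = 0.0325). Sparcl1 (hevin), which promotes synapse formation, was at 509 ± 66.9 CPM in PBS and 436 ± 69.8 CPM in PFF (−0.22 ± 0.12, adjusted p = 0.289). The protease inhibitor gene Cst3, the protease gene Htra1, the tissue factor gene F3, the glypican gene Gpc5 and S100b had values from −0.13 to 0.04 (adjusted p at least 0.551).

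Levels of different members were compared roughly, per kilobase of exon. The length joins the exons of all transcripts in GENCODE vM21, which may not all be made here. For Mt1 it was 1246 bases, the whole gene from 94179082 to 94180327. Introns thus entered its length and lowered its value. By this measure the highest member in PBS was Fabp7, at 597 ± 85.2 CPM per kilobase, followed by Cst3 at 548 ± 74.0, and these neighbours did not differ beyond their spread. Mt3 (310.4 ± 57.3) and Glul (299 ± 41.2) came next and overlapped each other. Of the 6 members that fell, Aldoc (168 ± 15.2) and Mt1 (148 ± 13.1) stood high, Slc1a2 (60.2 ± 10.2) and Dio2 (46.8 ± 8.80) in the middle, Aldh1l1 lower (14.9 ± 2.31) and Gli3 among the lowest (0.895 ± 0.0916). The falls were thus spread over the range of levels.

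The composition of the member transcripts was also compared within each library, as the share of each gene in the summed counts of the 43 members, a measure into which no scaling between libraries enters. It is a description, since shares of 1 sum depend on each other. Dio2 went from 2.71 ± 0.25% in PBS to 1.73 ± 0.0501% in PFF, Slc1a2 from 7.89 ± 0.402% in PBS to 6.32 ± 0.841% in PFF and Aldoc from 5.50 ± 0.489% in PBS to 4.51 ± 0.22% in PFF (SD, n = 3). In the other direction Clu went from 3.60 ± 0.2% in PBS to 4.87 ± 0.295% in PFF, Pla2g7 from 2.49 ± 0.0954% in PBS to 3.40 ± 0.28% in PFF and Slc4a4 from 2.19 ± 0.0357% in PBS to 2.82 ± 0.299% in PFF. Shares were also higher in every PFF library for Glul, Aqp4, Ttyh1 and Cst3. The log2 fold changes of these were −0.02, 0.00, 0.00 and 0.04, so a higher share is not a higher level. Shares were also lower in every PFF library for Fabp7, Mt1, Hepacam, Acsl6 and Aldh1l1. Of the 6 members that fell, Gli3 alone had shares that overlapped between groups. It went from 0.0864 ± 0.00949% in PBS to 0.0643 ± 0.0142% in PFF, with PFF 1 above PBS 3.

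**Figure D4:**
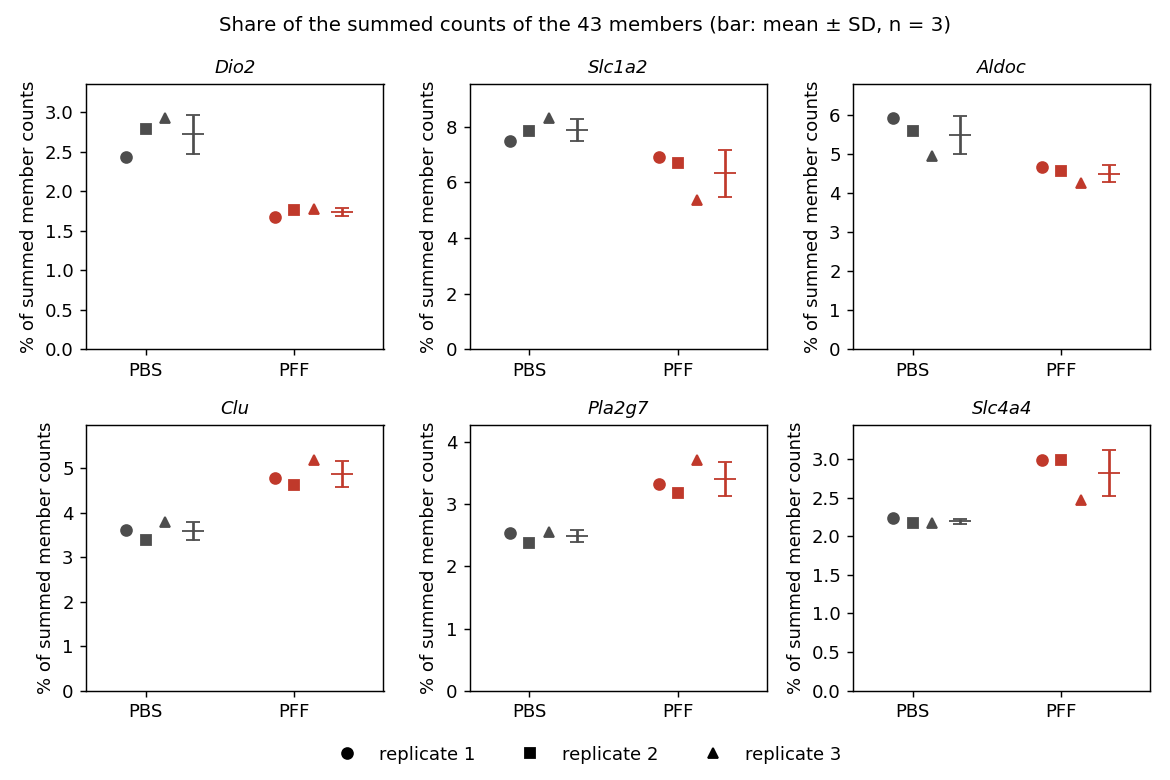
Share of 6 members in the summed counts of the 43 members in each library, in percent from 0, with the mean ± SD of 3 libraries as a bar; the genes were chosen after their values were seen. Dio2, Slc1a2 and Aldoc take a smaller share in every PFF library, and Clu, Pla2g7 and Slc4a4 a larger one.

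A second list of 45 homeostatic astrocyte genes, which shares no gene with the first, was read from the same fit. It was also chosen with earlier results of these data known and rests on the same 6 libraries, so it is not independent evidence. Of 42 tested, 6 fell (14.3%) and 1 rose (2.38%), and the median difference was −0.03 on the log2 scale. The antioxidant enzyme gene Prdx6 was at 680.0 ± 98.8 CPM in PBS and 445 ± 69.1 CPM in PFF (−0.61 ± 0.12, adjusted p = 0.0079). The bone morphogenetic protein antagonist Chrdl1 (−0.87 ± 0.18), the sulfurtransferase Tst (−0.53 ± 0.11), the glutamate receptor Grm3 (−0.68 ± 0.16), the cholesterol acyltransferase Lcat (−0.86 ± 0.24) and the connexin Gjb2 (−1.45 ± 0.40) fell as well. Gjb2 was very low, at 1.27 ± 0.123 CPM in PBS and 0.457 ± 0.153 CPM in PFF (edgeR adjusted p = 0.0456). Lcat was at 4.26 ± 0.413 CPM in PBS and 2.35 ± 0.682 CPM in PFF (edgeR adjusted p = 0.044). The urea transporter gene Slc14a1 rose, at 7.14 ± 1.62 CPM in PBS and 11.3 ± 0.591 CPM in PFF (0.66 ± 0.16, adjusted p = 0.0279). Lcat, Gjb2 and Slc14a1 were named after their values were seen. The number that fell was 1 without PFF 2 and 3 without PBS 1, and in replicates 1 and 2 only it was 8, with 4 higher. Of all tested genes, 0.711% fell without PFF 2 and 1.12% without PBS 1. In replicates 1 and 2 only 8.38% fell and 8.78% rose.

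Of 29 tested genes of a reactive astrocyte list, 9 rose and none fell, at a median of 0.33. The 4 with the smallest p were the complement gene C3 (1.91 ± 0.25), the protease inhibitor gene Serpina3n (0.77 ± 0.13), the metalloreductase gene Steap4 (2.60 ± 0.46) and the sphingosine phosphate receptor gene S1pr3 (0.69 ± 0.13). Steap4 was very low, at 0.305 ± 0.12 CPM in PBS and 1.89 ± 0.619 CPM in PFF. In replicates 1 and 2 only, 7 genes of the list rose, when 8.78% of all genes did. Gfap, the intermediate filament of astrocytes, was at 1689 ± 228 CPM in PBS and 1837 ± 412 CPM in PFF (0.12 ± 0.14, adjusted p = 0.682). Several genes of that list, such as C3 and Srgn, are also made by microglia. Markers of microglia and macrophages moved with the comparison: 17 of 18 tested rose (14 of 18 in replicates 1 and 2 only), and the 19 genes summed to 218 to 344 CPM in PBS and 636 to 768 CPM in PFF. No marker of that list was at 0 in all libraries; the complement gene C1qa, for example, was at 14.6 ± 4.08 CPM in PBS and 42.7 ± 3.53 CPM in PFF, and P2ry12, a marker of resting microglia, was at 1.02 ± 0.369 CPM in PBS and 1.20 ± 0.133 CPM in PFF. Against member sums of 8751 to 11338 CPM in PBS and 8139 to 10227 CPM in PFF, their part in the values of the members was not tested.

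**Figure D5:**
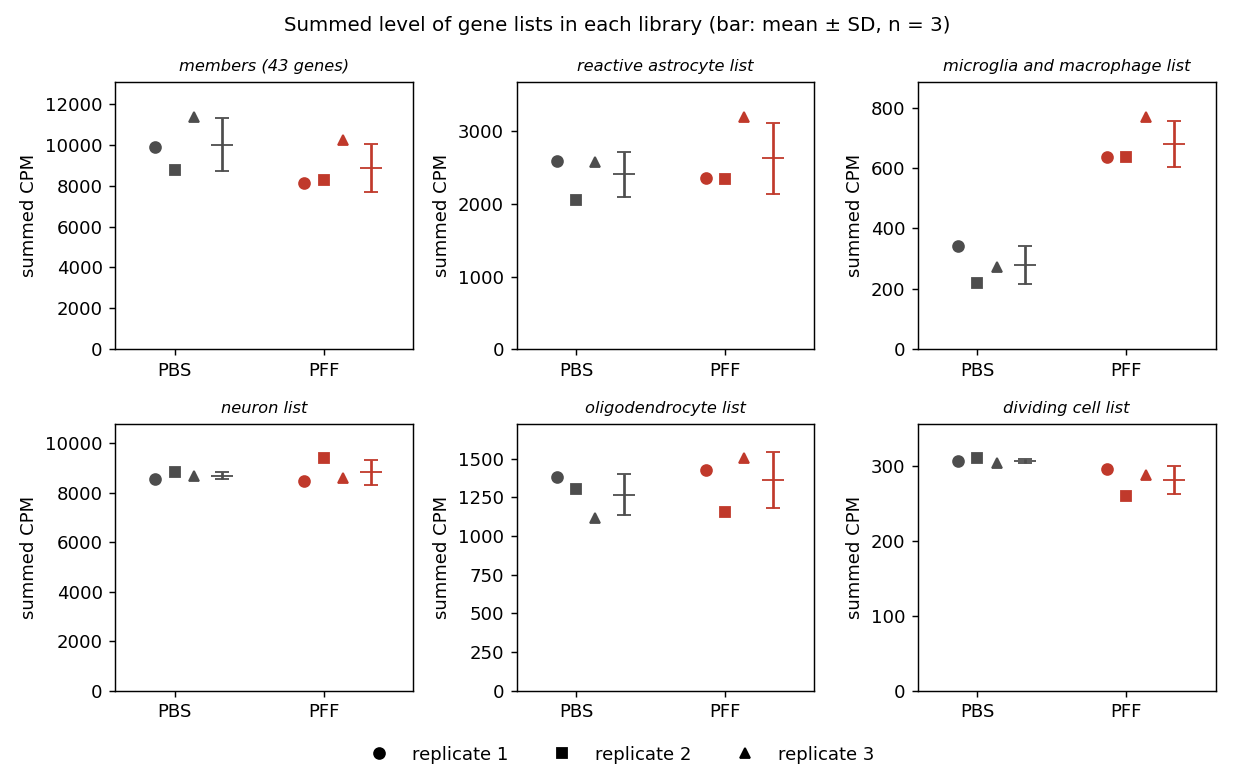
Summed CPM of the 43 members and of 5 other gene lists in each library, on linear axes from 0, with the mean ± SD of 3 libraries as a bar and symbols for the replicate number. The member sums of the groups overlap, with replicate 3 the highest in both, and the microglia and macrophage sums do not overlap.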

How the data were processed

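Total RNA of 6 mouse cortical culture samples was made into strand-marking libraries, per the labels' protocols. Estimated counts per gene, unscaled, were deposited, of which 8.69% are not whole. Trim Galore 0.6.6, STAR 2.7.9a, DESeq2 1.38.3 and mm10 are named in the submitters' processing notes; no source used here gives the counting tool, its strand setting or its annotation.

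Columns were matched to samples by name. Counts were rounded and analysed in R 4.3.3 with edgeR 4.0.16 (filterByExpr, which removed 10492 genes; TMM; robust quasi-likelihood F-test, two-sided; Benjamini-Hochberg over 13919 genes; threshold 0.05), without a replicate term. The SE is the log2 fold change divided by the square root of F. Alternatives used limma 3.58.1, DESeq2 1.42.0, other scalings and filters, a replicate block and each library left out in turn. Gene positions and exon overlaps came from GENCODE vM21. On simulated counts for the 13919 genes, 11 of 50 genes changed 1.25-fold, 41 of 50 changed 1.5-fold and 45 of 50 changed 2-fold were recovered, so small changes were mostly missed there. Of the unchanged genes, 11 were called. The simulated libraries were independent, without the shared shift of replicate 3. Changed genes were drawn at random from all tested genes, so recovery may differ for the members in these libraries.

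The members and lists were chosen with earlier results of these data known. Values in every sample are given for members that passed and for the glutamate, junction, lineage and metallothionein roles, and up to 4 genes with the smallest p are named in each other list; further genes were named after their values were seen.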

Additional observations from a re-analysis of the deposited data

How the results depend on the processing

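The number of genes called in all, 916, became 1391 at an adjusted p under 0.1, 2394 in replicates 1 and 2 only, 2005 with replicate 3 as a batch term, and between 412 and 1858 with 1 library left out. The number of members that fell, 6, became 13 in replicates 1 and 2 only, 14 with replicate 3 as a batch term and between 1 and 13 with 1 library left out, and the number that rose, 0, became 2 in replicates 1 and 2 only and 2 with the batch term. The number that rose was 0 with any 1 library left out. Of all tested genes, 8.38% were called lower and 8.78% higher in replicates 1 and 2 only, and 7.01% and 7.39% with the batch term. The other scalings, filters and tests gave 5 to 8 members lower and 0 higher. In them 2% to 2.76% of all genes were called lower and 3.35% to 4.43% higher. The median of the members was negative in every alternative, from −0.27 to −0.11.

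The replicate numbers are shared by the groups in the titles. The deviations of same-numbered libraries correlated at 0.0919, 0.109 and 0.202. Of the differently numbered pairs, PFF 1 and PBS 2 correlated at 0.128, and all others were negative (−0.207 to −0.00869). The labels name no pairing, and the main fit used none, but the number of calls depends on this choice. With the replicate block 1997 genes were called, and 15 members were lower and 2 higher (Clu and Pla2g7). Of all tested genes, 6.85% were then lower and 7.49% higher.

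Members whose sign changed had log2 values from −0.16 (Gja1) to 0.10 (Gli2) in the main fit and no call. The value of Gja1 was as large as the median of the members, −0.16. The setting upper quartile gave −0.0087 for Ttyh1 and −0.0075 for Aqp4. The setting library size only gave 0.0093 for Glul. The setting no low-count filter gave −0.0037 for Ttyh1 and −0.0026 for Aqp4. The setting replicates 1 and 2 only gave 0.040 for Glul, −0.030 for Ttyh1, −0.11 for Gli2 and −0.056 for Cst3. With 1 library left out the log2 fold change ranged from −0.16 to 0.019 for Ntsr2, from −0.15 to 0.28 for Htra1, from −0.073 to 0.055 for Ttyh1, from −0.095 to 0.085 for Aqp4, from −0.16 to 0.15 for Cst3, from −0.12 to 0.085 for Glul, from −0.13 to 0.018 for Atp1b2, from −0.28 to 0.012 for Gja1, from −0.30 to 0.038 for Mlc1, from −0.23 to 0.10 for Cbs, from −0.24 to 0.029 for Bmpr1b, from −0.13 to 0.36 for Gli2, from −0.20 to 0.10 for Gpc5, from −0.23 to 0.054 for S100b. The cause was not tested. Depth limits Gli1, Slc7a10, Gjb6, Gli2 and Gli3 most.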

Other observations

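The other cell types that such cultures hold had these values beside the members, in the same edgeR fit; each ± is an SE of a log2 fold change. In that fit 2.6% of all tested genes fell and 3.98% rose. In replicates 1 and 2 only 8.38% fell and 8.78% rose, and without PFF 3 7.01% fell and 6.19% rose. Of 18 neuron markers 4 rose and none fell, with sums of 8560.2 to 8825 CPM in PBS and 8460.2 to 9383 CPM in PFF. Those that rose were Nefm (0.67 ± 0.10) and Nefh (0.42 ± 0.11), which encode neurofilaments, the vesicular glutamate transporter Slc17a6 (0.56 ± 0.09) and the vesicle calcium sensor Syt1 (0.33 ± 0.09). The count was 9 higher and 1 lower without PFF 3 and in replicates 1 and 2 only, and 2 higher and 0 lower without PBS 1, PBS 2, PFF 1 or PFF 2; DESeq2 gave 5 higher and 1 lower. Of 15 genes of the oligodendrocyte lineage 5 rose and 8 fell, with sums of 1118 to 1380.0 CPM in PBS and 1158 to 1502 CPM in PFF. Among the 5 were the myelin genes Mag (1.41 ± 0.14), Mobp (1.67 ± 0.20) and Mbp (1.29 ± 0.15). The 8 included the progenitor and early genes Pdgfra (−0.62 ± 0.07), Cspg4 (−0.38 ± 0.09), Gpr17 (−1.22 ± 0.14) and Bcas1 (−1.66 ± 0.16). Leaving out PBS 1 or PFF 2 left 4 that fell, leaving out PBS 2 left 5, and in replicates 1 and 2 only 4 rose and 9 fell. Of 12 genes of dividing cells 2 fell, Cenpf (−0.60 ± 0.10) and Top2a (−0.36 ± 0.09), and none rose, with sums of 305 to 310.2 CPM in PBS and 259.7 to 295 CPM in PFF. The number was 1 without PBS 1, PBS 2 or PFF 2, and 2 in replicates 1 and 2 only. None of 10 tested endothelial, pericyte and fibroblast markers passed in the main edgeR fit, in DESeq2 or in limma-voom. In the main fit 5 had an unadjusted p under 0.05. Their sums were 57.3 to 71.8 CPM in PBS and 37.4 to 67.2 CPM in PFF. In edgeR 4 fell without PFF 3, 1 fell without PFF 1 and 2 fell in replicates 1 and 2 only. With all libraries, 2 fell with the replicate block and 1 with replicate 3 as a batch term. No tested marker of choroid plexus and ependyma, 5 genes, passed or had an unadjusted p under 0.05 with all libraries, 1 fell without PFF 3 and 1 in replicates 1 and 2 only, and the sums were 23.0 to 31.2 CPM in PBS and 22.7 to 30.6 CPM in PFF.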
